A study of Mus musculus with 5 samples.

Results

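Matrix metalloproteinases (MMPs), ADAMTS proteinases and the tissue inhibitors of metalloproteinases (TIMPs) were followed by gene and by cell type through single-cell RNA sequencing of the neonatal mouse penis and the embryonic mouse limb. A gene was a member if its symbol in the deposited gene lists was Mmp followed by a number and at most 1 letter, Adamts followed by a number, or Timp1 to Timp4. The rule took 45 of the 32285 listed genes, of which 22 were MMPs, 19 were ADAMTSs and 4 were TIMPs. The study set the penis at postnatal day 6 (P6), when the penis bone (baculum) begins to ossify, beside limbs of embryonic day 15 as labelled, when long bones begin to ossify. There were 3 penis libraries, 1 forelimb library and 1 hindlimb library, with no treatment named. The labels give the strain as C57BL/6N and the study's methods give C57BL/6J. The methods give 3 male pups of 2 litters, with the prepuce removed and the glans kept, and 6 male embryos for the limbs, but the labels tie no library to an animal, so that p-values measure the spread between these libraries only. Both limb libraries may come from the same embryos. They were taken as 1 limb arm of 2 libraries against 3 of penis, and tissue, age and library cannot be told apart in that comparison.

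These enzymes cut the proteins that surround cells. MMPs are zinc-dependent: the gelatinases MMP2 and MMP9 cleave denatured and basement-membrane collagens, the collagenases MMP8 and MMP13 open fibrillar collagen, and the membrane-type enzymes, led by MMP14, act at the cell surface, where MMP14 also activates pro-MMP2 with TIMP2 as the bridge. ADAMTSs are secreted: ADAMTS2, ADAMTS3 and ADAMTS14 trim the amino end of procollagens, while ADAMTS1, ADAMTS4, ADAMTS5, ADAMTS8, ADAMTS9, ADAMTS15 and ADAMTS20 cut proteoglycans such as aggrecan and versican. TIMPs bind the active site, and TIMP3 is held in the matrix and also blocks several ADAMTSs. In growing bone, MMP13 from hypertrophic chondrocytes and osteoblasts and MMP9 from osteoclasts take part in the removal of cartilage matrix.

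Positions were taken from the GENCODE annotation of GRCm38, the build the authors named as mm10, by gene identifier, and all 45 members were found. Of the 22 MMP genes, 9 stood in 1 stretch of chromosome 9, between 7272514 and 7699585 (427 kb), in the order Mmp13, Mmp12, Mmp1b, Mmp3, Mmp10, Mmp8, Mmp27, Mmp20 and Mmp7. The transcribed spans of Mmp12 (7344381 to 7369499, plus strand) and Mmp1b (7368239 to 7388047, minus strand) overlap. Together the 9 genes held 2296 of the 337267 MMP counts in all filtered cells (0.681%), and 1474 of these were of Mmp13. Neighbours in this stretch were counted in different cell types, as described below: Mmp13 in skeletal cells, Mmp8 in neutrophils and Mmp7 in keratinocytes. The 250 bases before the RefSeq start of these 3 genes (GRCm38.p6, plus strand, 5′ to 3′) are shown for that reason. Capitals mark matches, on either strand, to 2 motifs: TGACTCA or its reverse complement TGAGTCA, bound by AP-1 factors, and AACCACA or its reverse complement TGTGGTT, bound by RUNX factors, and the 2 motifs do not overlap in these windows.

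Mmp13, chr9:7272264-7272513: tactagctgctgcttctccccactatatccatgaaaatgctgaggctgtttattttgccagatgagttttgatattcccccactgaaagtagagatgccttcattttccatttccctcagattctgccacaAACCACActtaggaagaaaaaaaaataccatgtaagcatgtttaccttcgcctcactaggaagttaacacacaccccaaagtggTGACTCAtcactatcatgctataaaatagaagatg
Mmp8, chr9:7558179-7558428: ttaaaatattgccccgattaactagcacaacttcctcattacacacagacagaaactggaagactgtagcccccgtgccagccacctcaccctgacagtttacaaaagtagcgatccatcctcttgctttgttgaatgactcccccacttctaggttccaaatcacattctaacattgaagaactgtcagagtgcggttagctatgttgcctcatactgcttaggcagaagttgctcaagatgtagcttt
Mmp7, chr9:7691840-7692089: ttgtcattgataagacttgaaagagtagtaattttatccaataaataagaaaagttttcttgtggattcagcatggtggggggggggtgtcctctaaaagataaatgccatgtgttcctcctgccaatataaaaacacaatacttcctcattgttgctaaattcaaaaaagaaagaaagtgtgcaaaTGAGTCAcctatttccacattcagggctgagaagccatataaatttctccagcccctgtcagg

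The Mmp13 window held a RUNX match that began 119 bases before the start and an AP-1 match that began 35 bases before it. The Mmp7 window held an AP-1 match that began 63 bases before the start, and the Mmp8 window held neither motif. Of the 31 members matched by symbol in the RefSeq promoter table, 5 had an AP-1 match in this window (Mmp1b, Mmp3, Mmp7, Mmp10 and Mmp13) and 2 had a RUNX match (Mmp13 and Mmp27). All of these lie in the chromosome 9 stretch, whose 9 genes all had an entry, and the other 22 members with an entry had neither motif. Over the 27025 genes of the table, 4.47% of the windows held the AP-1 motif and 4.40% the RUNX motif. A match of letters is a description and not a binding site.

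The files held 10429, 11397 and 8411 barcodes for the penis libraries and 28266 and 25937 for the forelimb and hindlimb, with 70554067 to 162335993 unique molecular identifiers (UMIs, 1 per captured transcript molecule) per library. The study's limits on genes and mitochondrial reads per cell left 5708 to 7085 cells per penis library and 22057 and 20514 per limb library, with a median of 8792 to 9909 UMIs per cell in the penis and 5358 and 6057 in the limb. At most 203 barcodes of a library recurred in another. Cells were gated into 15 types by counts of detected marker genes, none of them a member, and cells passing more than 1 gate were left out. The mesenchyme gate held 3620 to 4379 cells per penis library and 11788 and 12396 per limb library. Osteoclast gates held 1 to 5 cells, neutrophil gates 10 to 16 and osteoblast gates 14 to 24, and their values are given without a test. No penis cell passed the skeletal muscle gate. Levels are given as CPM, the UMIs of a gene in 1000000 UMIs of all gated cells of that type and library. UMIs of the 3′ protocol count molecules at their 3′ ends, so CPM carries no term for gene length, and whether intronic reads were counted is not given in the sources used here.

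A few members made up most of the signal, and which ones depended on the cell type. In penis mesenchyme the 22 MMPs summed to 1138, 1145 and 1180.5 CPM, of which Mmp14 supplied 41.1%, and in limb mesenchyme to 595 and 627 CPM, of which Mmp14 supplied 36.3%. The 19 ADAMTSs summed to 967 ± 43.1 CPM (SD, n = 3) in penis mesenchyme, led by Adamts12 with 20.7%, and to 884 ± 34.6 CPM (SD, n = 2) in limb mesenchyme, led by Adamts1 with 16.7%. The 4 TIMPs summed to 725 ± 12.3 CPM in penis and 343 ± 29.0 CPM in limb mesenchyme, with Timp2 supplying 68.3% and 62.2%. In endothelial cells Adamts9 alone supplied 63.0% of the ADAMTS counts in penis and 50.4% in limb. Timp3 led the inhibitors in glial cells of both arms, with a mean of 779 ± 21.5 CPM (SD, n = 3) for penis against 294 ± 18.7 CPM (SD, n = 2) for limb. Among limb mast cells Adamts9 reached 77.5% of the ADAMTS counts. At the other end, 8 members had under 100 UMIs over all filtered cells of the 5 libraries: Mmp1b, Mmp7, Mmp10, Mmp12, Mmp20, Mmp21, Mmp27 and Adamts13, the last a plasma enzyme that cuts von Willebrand factor. The heat map of all 45 members shows these rows as nearly blank.

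**Figure D1:**
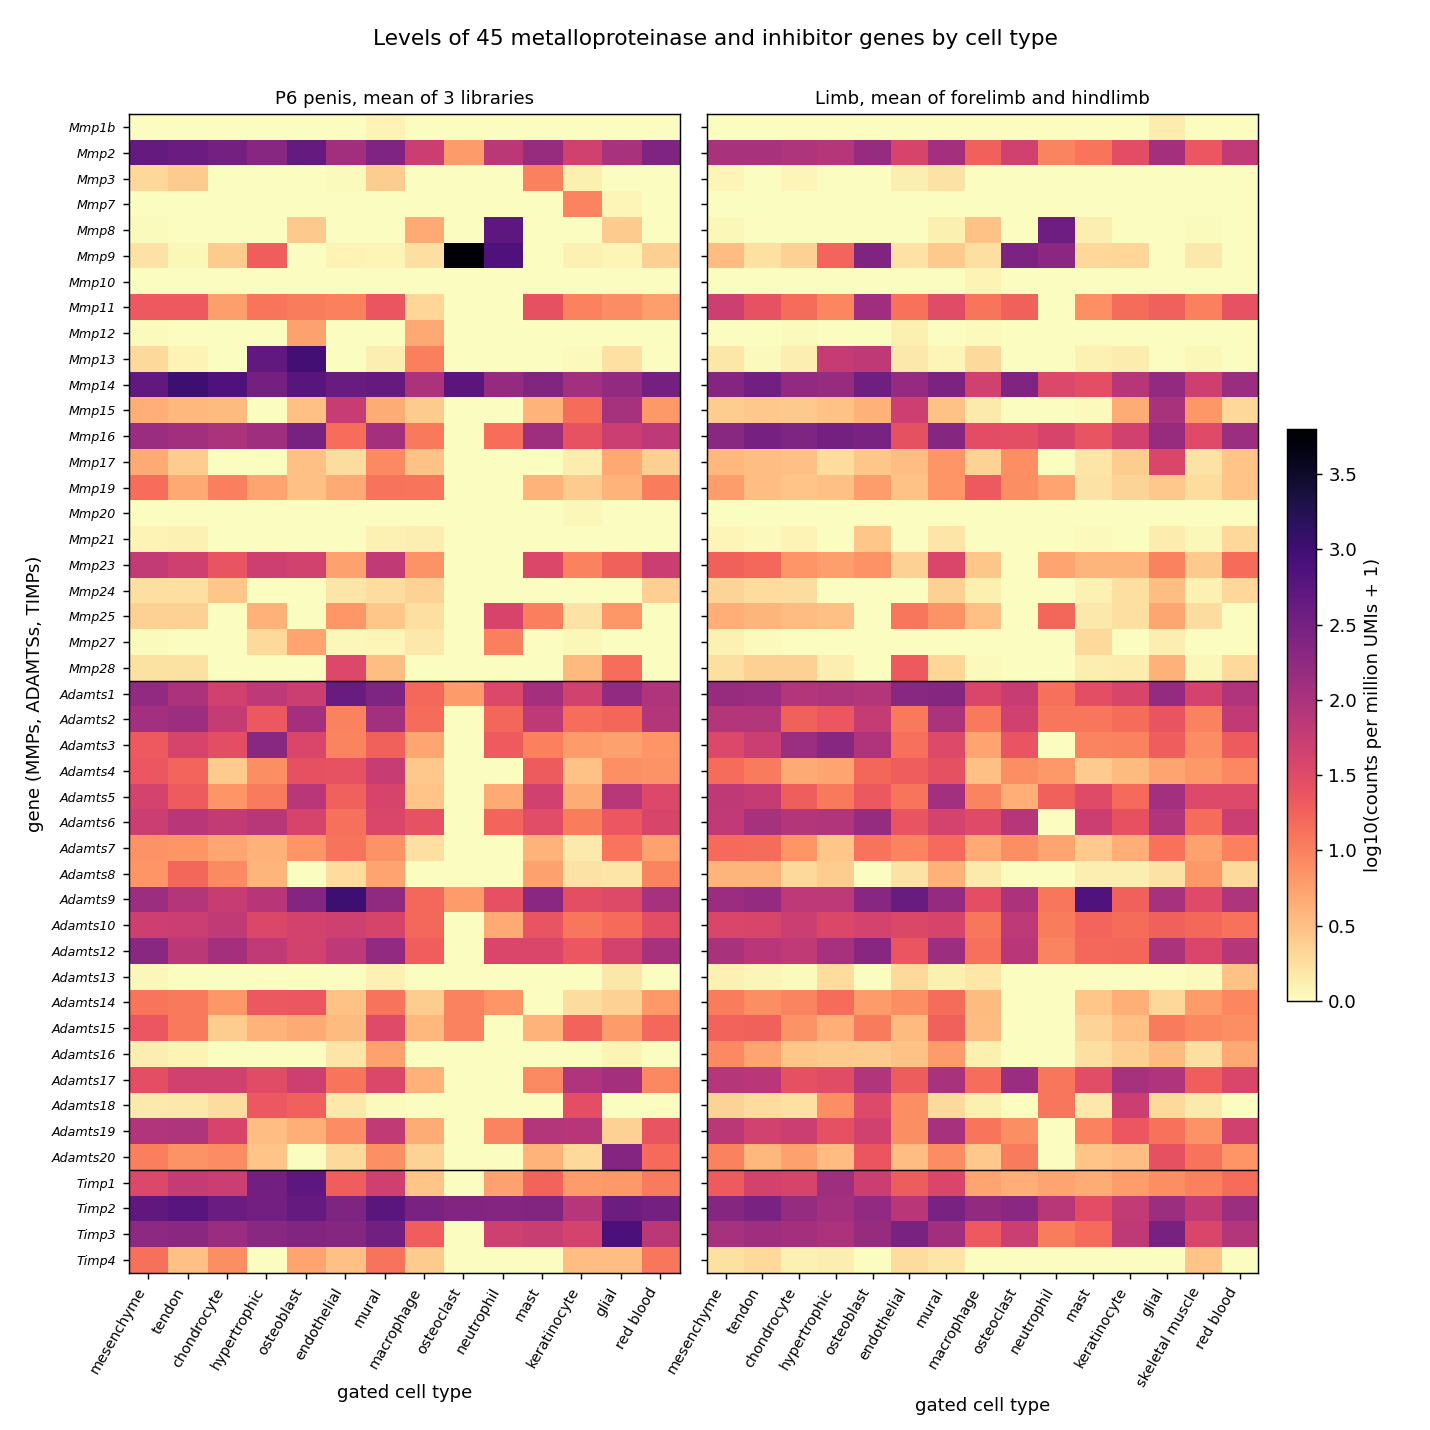
Mean levels of the 45 members, as log10(CPM + 1), in each gated cell type of the penis (left, mean of 3 libraries) and the limb (right, mean of 2 libraries), with black lines between MMPs, ADAMTSs and TIMPs. Mmp2, Mmp14, Timp2 and Timp3 are dark in most columns, while Mmp8, Mmp9, Mmp13 and Adamts20 are dark in 1 to 4 columns; osteoclast, neutrophil and osteoblast columns rest on few cells.

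Several proteinases were concentrated in small populations. Mmp13 is the collagenase of late cartilage and young bone. In osteoblast-gated cells it stood at 1655, 218 and 824 CPM in the penis and 131 and 0 CPM in the forelimb and hindlimb. In hypertrophic chondrocyte-gated cells the values were 265, 1143 and 6.59 CPM in the penis and 57.2 and 53.8 CPM in the forelimb and hindlimb. Mesenchyme-gated cells held 0.51, 0.588 and 1.82 CPM in the penis and 0.576 and 0.462 CPM in the limb, and chondrocyte-gated cells 0 CPM in every penis library and 0.274 and 0.359 CPM in the limb. The osteoblast levels of all 3 penis libraries lay above both limb libraries, while for hypertrophic cells penis replicate 3 lay below them. The share of all genes without overlap in the osteoblast gate was not counted. The summed osteoblast markers in the osteoblast gate were 7514, 3198 and 5986 CPM in the penis and 4659.9 CPM in the forelimb and 625 CPM in the hindlimb, and the summed mesenchyme markers were 4983, 5544 and 5086 CPM in the penis and 4053 CPM in the forelimb and 3979 CPM in the hindlimb. The hindlimb cells of this gate held the least of the markers that name it, and the part of either list in the Mmp13 levels was not tested. In the hypertrophic gate the summed osteoblast markers were 5398 to 8403 CPM in the penis libraries and 1133 to 1418 CPM in the limb libraries. Its summed mesenchyme markers were 3584 to 4093 CPM and 1369 to 1431 CPM. The part of these lists in its Mmp13 levels was not tested either. Pooled over the libraries of an arm, osteoblast-gated Mmp13 was 827 CPM in the penis (429 UMIs in 46 cells, exact 95% Poisson interval 751 to 909) and 60.3 CPM in the limb (36 UMIs in 39 cells, interval 42.3 to 83.5), intervals that cover counting error only. A UMI of Mmp13 was found in 23 of the 46 penis osteoblast-gated cells (50.0%, exact binomial interval 34.9 to 65.1) and in 1 of the 39 limb cells (2.56%, interval 0.0649 to 13.5), where that single forelimb cell held all 36 UMIs. Among mesenchyme-gated cells the share was 0.342% in the penis and 0.190% in the limb. In hypertrophic-gated cells 8 of 50 penis cells and 8 of 234 limb cells had Mmp13. These cells had medians of 25088, 20748 and 23145.5 UMIs in the penis and 7711 and 9071 in the forelimb and hindlimb. Mesenchyme-gated medians were 9084.5 to 10277 UMIs in the penis and 5416.5 and 6035 in the limb. Shares of cells with a UMI rise with depth, and those of Mmp13 were not thinned. In the hypertrophic gate a single cell held 71 of the 78 hindlimb UMIs and 46 of the 52 forelimb ones. In penis replicates 1, 2 and 3 a single cell held 86 of 93, 177 of 417 and 2 of 2 UMIs. In osteoblast-gated cells of the same replicates a single cell held 151 of 253, 19 of 45 and 65 of 131 UMIs.

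Mmp9, the gelatinase of osteoclasts and neutrophils, had the highest level of any member in any gate. Osteoclast-gated cells held 4489, 3967 and 8769.6 CPM in the penis and 129 and 402 CPM in the forelimb and hindlimb, with 2, 2, 1, 2 and 5 cells behind these values. All 5 penis cells and 4 of the 7 limb cells had at least 1 UMI of it. The summed osteoclast markers in this gate were 7122 to 11061 CPM in the penis libraries and 668 to 1073 CPM in the limb libraries, and the summed mesenchyme markers were 0, 26.3 and 159 CPM in the penis and 172 CPM in the forelimb and 2637 CPM in the hindlimb. The hindlimb cells thus held more of the mesenchyme markers than of those that name the gate, and the part of either list in the Mmp9 levels was not tested. Neutrophil-gated cells held 708, 625 and 844 CPM in the penis and 176 and 211 CPM in the forelimb and hindlimb. The penis and limb values did not overlap, and the share of all genes without overlap in this gate was not counted. The summed mesenchyme markers in neutrophil-gated cells were 773 to 1383 CPM in the penis libraries and 288 to 520 CPM in the limb libraries. Their part in the Mmp9 levels was not tested. Macrophage-gated cells, of the same blood lineage, held 0 to 1.11 CPM of Mmp9. In the limb osteoblast gate Mmp9 was 483 CPM in the forelimb and 6.22 CPM in the hindlimb, where 128 of the 133 forelimb UMIs came from 1 of 24 cells. The summed osteoclast markers in the limb osteoblast gates were 10.9 CPM in the forelimb and 3.11 CPM in the hindlimb. The osteoblast gates of the penis had no Mmp9 UMI in 46 cells, which allows a share of cells with a UMI of up to 6.52% (3 cells of the total) and limits nothing about cells that express it below detection.

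Mmp8 is the neutrophil collagenase. In neutrophil-gated cells it stood at 601, 170.4 and 816 CPM in the penis and 319 and 399 CPM in the forelimb and hindlimb, and the arms overlapped. Macrophage-gated cells held 1.88 to 5.86 CPM of it, and Mmp8 was at 0 in endothelial, chondrocyte and keratinocyte gates of every library. Of all filtered-cell UMIs of Mmp8, 65.5% in the penis and 31.1% in the limb lay in the neutrophil gate, and 20.6% and 47.1% in cells that passed no gate. Neutrophils also held the highest penis level of Mmp25, a membrane-anchored enzyme of white blood cells, at 38.7 CPM (9 UMIs in all). Mmp7 (matrilysin), an epithelial enzyme, was read in penis keratinocyte-gated cells at 10.6, 9.73 and 4.74 CPM and at 0 in both limb libraries. It had 85 UMIs in 18 of 960 penis cells (1.88%, exact binomial interval 1.11 to 2.95). In the limb 0 of 425 cells had a UMI, which allows a share of up to 0.706% (3 cells of the total). Both limits pool cells and leave out the spread between libraries, so they do not test the arms. The limb cells were also shallower, at medians of 4181 and 4358.5 UMIs against 7977 to 10018 in the penis, and these shares were not thinned. Among mesenchyme-gated cells 2 of 12268 in the penis and 2 of 24184 in the limb had a UMI of Mmp7. Mmp12, the macrophage elastase, was at 2.22, 2.16 and 7.32 CPM in penis macrophages and at 0.209 and 0 CPM in limb macrophages, on 9 and 1 UMIs.

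**Figure D2:**
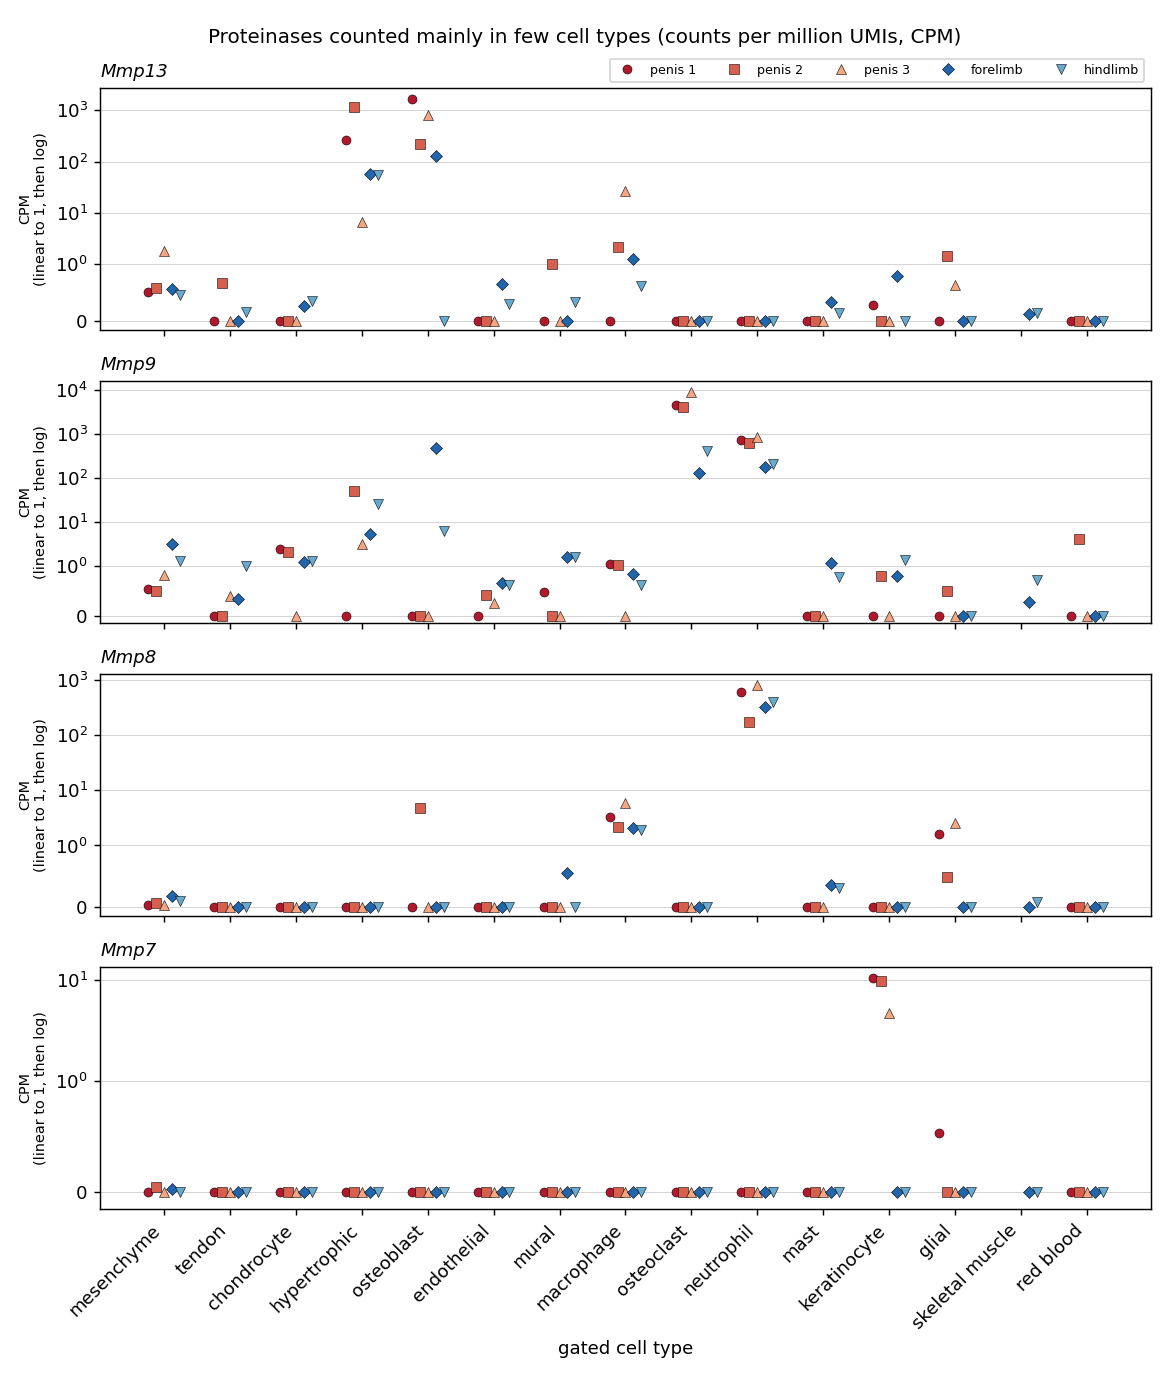
CPM of Mmp13, Mmp9, Mmp8 and Mmp7 in each gated type, 1 point per library (red shades penis, blue shades limb), on an axis linear to 1 and logarithmic above. Mmp13 peaks in hypertrophic and osteoblast gates, Mmp9 in osteoclast and neutrophil gates, Mmp8 in neutrophils and Mmp7 in penis keratinocytes; skeletal muscle has limb points only.

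Adamts20 cuts versican and is known from the belted coat pattern of its mutants. In glial-gated cells (Schwann cell lineage) it stood at 193, 250.1 and 223 CPM in the penis and 36.4 and 13.3 CPM in the forelimb and hindlimb, against 8.77 to 9.47 CPM in mesenchyme of every library. In the hindlimb its levels in the osteoblast and osteoclast gates, of 15.5 and 20.4 CPM on 15 and 5 cells, lay above the glial one. Adamts3, the procollagen N-proteinase best known for collagen type II and for VEGF-C, was highest in hypertrophic-gated cells, at 183, 167 and 260.4 CPM in the penis and 202 and 211 CPM in the limb, where the arms overlapped. Adamts9, which cuts versican and aggrecan, was at 1026, 1003 and 1158 CPM in penis endothelium and at 732 and 679 CPM in limb mast cells, whose gates held 643 and 617 cells. Penis mast gates held 8 to 16 cells and gave 40.1 to 338 CPM of Adamts9. Mmp15, a membrane-type enzyme, was highest in glial cells, at 113, 109 and 106 CPM in the penis and 105 and 96.4 CPM in the forelimb and hindlimb, and was not called there (log2 fold change 0.17 ± 0.11 (SE), adjusted p = 0.253). Mmp28, a secreted enzyme known from skin repair, was highest in endothelium, at 30.2 to 35.9 CPM in the penis and 18.1 and 22.2 CPM in the limb.

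Penis and limb were then compared within cell types. A minimum of 20 cells per library was met by 8 gates. Tests were run in 7 of them, and the values of tendon, the remaining one, are given without a test. UMIs were summed per library and gate, and edgeR's quasi-likelihood test was run over all genes that passed its filter on low counts. A gene was called at an adjusted p under 0.01 and a log2 fold change over 1 in either direction. The study applied these limits together with others on the share of cells expressing a gene, which were not used here. Of the 45 members, 38 passed the filter in at least 1 gate, 33 were called in at least 1, where 40.5% of the 20558 genes tested in any gate were, and 5 were tested but never called (Mmp13, Mmp21, Mmp24, Adamts10 and Timp1). The other 7 were too low for any gate: Mmp1b, Mmp8, Mmp10, Mmp12, Mmp20, Mmp27 and Adamts13. Members that pass only where they are high had to differ, so that the counts below describe the members tested and not the families. Over the 7 gates there were 33 calls of a higher and 25 of a lower level in the penis. In 7 of the former and 4 of the latter the gene reached the filter's limit (10 counts at the median library size) in libraries of 1 arm alone, the arm where it was high. These 11 calls are kept in the counts, but their direction was fixed by the filter, so that they are given as values without a p and support nothing. Mmp3, Mmp7, Mmp17, Mmp28, Adamts2 and Adamts15 had no other call in these gates. Adamts14 in endothelium, Mmp16 in macrophages and Mmp15 in keratinocytes came close to this. In each, the arm where the gene was low reached the limit in 1 library only, too few to pass without the other arm. These calls also stay in the counts and support nothing. Of their p-values, only those under which the call was lost are given.

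In mesenchyme, Mmp2, Mmp14 and 2 of the 4 inhibitors were higher in the penis, and 3 of the 4 ADAMTSs with few known substrates were lower. Of 37 members tested, 9 were higher in the penis (24.3%), where 12.4% of all 20226 genes tested were, and 7 were lower (18.9%), where the share of all genes was also 12.4%. The median log2 fold change was 0.25 over the members and 0.0029 over all genes. Mmp2, gelatinase A, was 438, 438 and 444 CPM in the penis and 102 and 99.95 CPM in the forelimb and hindlimb (log2 fold change 2.10 ± 0.059 (SE), adjusted p = 1.95e-08). Its activator Mmp14 was 467, 471 and 485 CPM in the penis and 228 and 217 CPM in the forelimb and hindlimb (log2 fold change 1.07 ± 0.061 (SE), adjusted p = 7.95e-07). Timp2, the bridge between both enzymes, was 492, 495 and 498 CPM in the penis and 225 and 201 CPM in the forelimb and hindlimb (log2 fold change 1.19 ± 0.071 (SE), adjusted p = 1.06e-06). For all 3 genes the lowest penis library lay above the higher limb library. That describes genes already called, and the share of all genes without overlap was not counted.

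The largest difference in the same direction was that of Timp4, an inhibitor known from heart and brain, at 13.1, 11.6 and 12.6 CPM in the penis and 0.627 and 0.777 CPM in the forelimb and hindlimb (log2 fold change 4.12 ± 0.12 (SE), adjusted p = 2.73e-08). Its UMIs were found in 8.08% of the penis cells (exact binomial interval 7.60 to 8.57) and 0.438% of the limb cells (0.359 to 0.530). These intervals pool cells and leave out the spread between libraries. By library, 384 of 4269, 332 of 4379 and 275 of 3620 penis cells had a UMI. In the forelimb and hindlimb 46 of 12396 and 60 of 11788 cells did. With each cell thinned to 2000 UMIs the shares were 2.05% to 2.28% in the penis, where 35, 46, 52 shallower cells per library were left out, and 0.121% to 0.154% in the limb, where 336 and 136 were. Endothelial cells, not thinned, had a Timp4 UMI in 1.28% to 1.73% of penis cells and 0.660% and 0.833% of limb cells. Their median depth was 9232 to 9581 UMIs in the penis and 5525 and 7252 in the forelimb and hindlimb. Among the other MMPs, Mmp23, a membrane-bound enzyme without the common propeptide switch, was 59.98, 57.5 and 55.2 CPM in the penis and 20.9 and 12.9 CPM in the forelimb and hindlimb (log2 fold change 1.75 ± 0.17 (SE), adjusted p = 2.41e-05). Mmp19 was 12.6, 13.8 and 13.5 CPM in the penis and 5.21 and 5.02 CPM in the forelimb and hindlimb (log2 fold change 1.35 ± 0.084 (SE), adjusted p = 1.33e-06). Both lay well apart in the 2 arms. Mmp15 was higher at a low level, at 3.66, 2.78 and 3.68 CPM against 1.57 and 1.45 CPM (log2 fold change 1.13 ± 0.16 (SE), adjusted p = 2.14e-04), a call that looser gates ended (0.96). So was Mmp3, a stromelysin, at 1.06, 0.995 and 0.97 CPM against 0.192 and 0.158 CPM (log2 fold change 2.50, filter passed through the penis alone). Of the 7 proteoglycan-cutting ADAMTSs, all tested, Adamts8 alone was called, at 5.63, 6.49 and 5.41 CPM against 3.17 and 2.44 CPM (log2 fold change 1.04 ± 0.15 (SE), adjusted p = 2.73e-04). That call was lost without penis replicate 2 (log2 fold change 0.95) or the hindlimb library (0.85).

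The largest difference toward the limb was that of Adamts16, an enzyme with few known substrates that is linked to urogenital development. It stood at 0.244, 0.384 and 0.353 CPM in the penis and 6.57 and 8.52 CPM in the forelimb and hindlimb (log2 fold change -4.55 ± 0.20 (SE), adjusted p = 1.82e-07). Adamts17 was 25.4, 24.5 and 30.9 CPM in the penis and 70.4 and 87.5 CPM in the limb (log2 fold change -1.58 ± 0.10 (SE), adjusted p = 1.88e-06). Adamts18 was 0.465, 0.588 and 0.176 CPM and 1.22 and 1.30 CPM (log2 fold change -1.58 ± 0.33 (SE), adjusted p = 0.00207). The last of that group, Adamts19, differed by 0.25 ± 0.068 (adjusted p = 0.00928) on the log2 scale and was not called. Mmp11, stromelysin 3, which is made by stroma in remodelling tissue, was 20.1, 20.03 and 20.3 CPM in the penis and 41.5 and 53.2 CPM in the forelimb and hindlimb (log2 fold change -1.26 ± 0.092 (SE), adjusted p = 3.56e-06). Adamts7, which cleaves cartilage oligomeric matrix protein, was 6.29, 5.72 and 7.09 CPM in the penis and 13.9 and 14.6 CPM in the forelimb and hindlimb (log2 fold change -1.20 ± 0.086 (SE), adjusted p = 3.25e-06). The membrane-type Mmp25 was 1.53, 0.995 and 1.35 CPM in the penis and 3.76 and 3.098 CPM in the limb (log2 fold change -1.43 ± 0.19 (SE), adjusted p = 1.20e-04). For each of these 6 called genes every limb library lay above every penis library, which adds no support as the calls picked them.

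Mmp9 was also called lower in penis mesenchyme, at 0.532, 0.497 and 0.823 CPM against 3.26 and 1.36 CPM (log2 fold change -1.96 ± 0.39 (SE), adjusted p = 0.00179). These UMIs sat in 62 of 12268 penis cells and 204 of 24184 limb cells, and 95 of the 255 forelimb UMIs were in 1 cell. The call was lost without penis replicate 1 (log2 fold change -1.86, adjusted p = 0.0103) or penis replicate 2 (-1.82, adjusted p = 0.0130), and without the forelimb library the difference was -1.18. Mmp13 differed by 0.81 ± 0.49 (adjusted p = 0.164) in this gate, where 55 of the 62 UMIs of penis replicate 3 came from 1 cell. The members tested and not called included all 3 procollagen N-proteinases (log2 fold changes 0.47 for Adamts2, -0.73 for Adamts3 and 0.18 for Adamts14) and both fibrillin-associated ones, Adamts6 and Adamts10. Adamts12 fell just short of the limit on size, at 193, 194 and 213 CPM in the penis and 97.9 and 103 CPM in the forelimb and hindlimb (log2 fold change 0.97 ± 0.058 (SE), adjusted p = 1.03e-06). Mmp16, a membrane-type enzyme, was 127, 134 and 148 CPM in the penis and 183 and 228 CPM in the forelimb and hindlimb (log2 fold change -0.61 ± 0.09 (SE), adjusted p = 2.69e-04). Adamts9 overlapped between the arms, at 131, 131 and 141 CPM and 124 and 152 CPM (log2 fold change -0.061 ± 0.079 (SE), adjusted p = 0.508). The other proteoglycan-cutting members lay below the limit on size. Adamts1 was 167, 172 and 178 CPM in the penis and 151 and 145 CPM in the forelimb and hindlimb (log2 fold change 0.19 ± 0.055 (SE), adjusted p = 0.0113). Adamts4 was 21.6, 20.5 and 22.8 CPM against 13.7 and 13.3 CPM (log2 fold change 0.65 ± 0.064 (SE), adjusted p = 2.05e-05), and Adamts5 was 38.4, 40.54 and 40.3 CPM against 73.8 and 56.2 CPM (log2 fold change -0.73 ± 0.11 (SE), adjusted p = 2.43e-04). The summed level of the 10 markers that set the gate also differed, at 5496 to 5610.0 CPM in the penis libraries and 4206 to 4291 CPM in the limb libraries. Of the lists of other types, the following also separated the arms, at a lower level. Chondrocyte markers summed to 172 to 173 CPM in the penis and 182 to 227 CPM in the limb. Osteoclast markers summed to 6.35 to 7.29 CPM in the penis and 5.82 to 6.26 CPM in the limb. Osteoblast markers summed to 23.3 to 28.9 CPM in the penis and 68.3 to 84.9 CPM in the limb, endothelial markers to 73.5 to 78.5 CPM in the penis and 142 to 152 CPM in the limb, keratinocyte markers to 40.3 to 50.9 CPM in the penis and 25.6 to 27.9 CPM in the limb and neutrophil markers to 10.6 to 17.6 CPM in the penis and 4.05 to 8.62 CPM in the limb. The part of these lists in the mesenchymal differences was not tested.

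**Figure D3:**
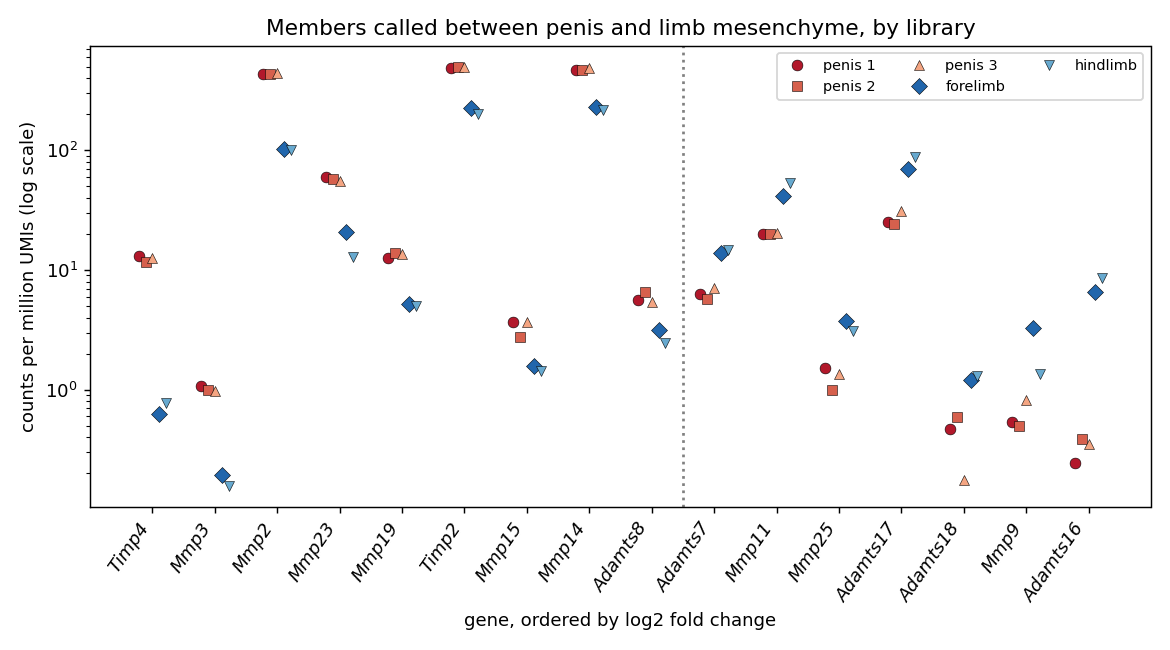
CPM on a log axis of the 16 members called in mesenchyme, 1 point per library (red shades penis, blue shades limb), ordered by log2 fold change, with a dotted line between the 9 higher and the 7 lower in the penis. The 3 penis libraries lie on one side of the 2 limb libraries for every gene shown, all of them picked by their calls. Timp4 and Adamts16 have the widest gaps.

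The 4 inhibitors differed in where they were counted and in how penis and limb compared. Timp1 is a soluble inhibitor of most MMPs. In osteoblast-gated cells, its highest gate in the penis, it was 464, 484 and 648 CPM in the penis and 87.2 and 15.5 CPM in the forelimb and hindlimb. In hypertrophic cells, its highest gate in the limb, it was 382, 323 and 287 CPM in the penis and 170.4 and 88.3 CPM in the forelimb and hindlimb. The penis and limb values of Timp1 did not overlap in either gate. Both gates were too small to test, and the share of all genes without overlap in them was not counted. Among the osteoblast-gated cells those of the hindlimb were low in their own markers, as given above. The hypertrophic-gated cells held summed osteoblast markers of 5398 to 8403 CPM in the penis libraries and 1133 to 1418 CPM in the limb libraries and summed mesenchyme markers of 3584 to 4093 CPM in the penis libraries and 1369 to 1431 CPM in the limb libraries, and the part of these lists in the Timp1 levels was not tested. In mesenchyme Timp1 was 34.1, 32.8 and 32.1 CPM in the penis and 20.9 and 18.1 CPM in the forelimb and hindlimb, a difference below the limit on size (log2 fold change 0.73 ± 0.079 (SE), adjusted p = 3.72e-05). In endothelium it was 16.8 to 19.3 CPM in the penis and 17.0 and 21.4 CPM in the limb (log2 fold change -0.096 ± 0.17 (SE), adjusted p = 0.674). In tendon-gated cells, its highest penis gate, Timp2 was 611, 614 and 558 CPM in the penis and 286 and 269 CPM in the forelimb and hindlimb. It was called higher in the penis in 4 of the 7 gates. Its level in macrophages, 352, 258 and 223 CPM in the penis and 162 and 168 CPM in the forelimb and hindlimb, did not pass the limit on size (log2 fold change 0.79 ± 0.16 (SE), adjusted p = 0.00190).

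Timp3 was highest in glial cells of the 3 penis libraries and the forelimb, and in the hindlimb its endothelial level was higher. In glial cells it stood at 784, 797 and 755 CPM in the penis and 281 and 307 CPM in the forelimb and hindlimb (log2 fold change 1.47 ± 0.092 (SE), adjusted p = 5.09e-09). Mural-gated cells, named for markers of pericytes and smooth muscle, summed more of the mesenchyme markers than of the mural ones, as given below. In them Timp3 was 336, 306 and 364 CPM in the penis and 122 and 122 CPM in the forelimb and hindlimb (log2 fold change 1.39 ± 0.11 (SE), adjusted p = 2.04e-06). The direction was the opposite in endothelium, at 218, 202 and 236 CPM in the penis and 255 and 324 CPM in the forelimb and hindlimb, although that difference was below the limit on size (log2 fold change -0.44 ± 0.10 (SE), adjusted p = 0.00214). The mesenchymal levels of Timp3 were 179, 179 and 196 CPM in the penis and 117 and 102 CPM in the forelimb and hindlimb (log2 fold change 0.73 ± 0.073 (SE), adjusted p = 2.41e-05). In mural cells Timp4 was 16.0, 9.15 and 10.2 CPM in the penis and 0.829 and 0.334 CPM in the forelimb and hindlimb (log2 fold change 4.17, filter passed through the penis alone), on 3 and 1 UMIs in the limb. In tendon, Timp4 was 2.02 to 2.38 CPM in the penis and 0 and 1.89 CPM in the limb.

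**Figure D4:**
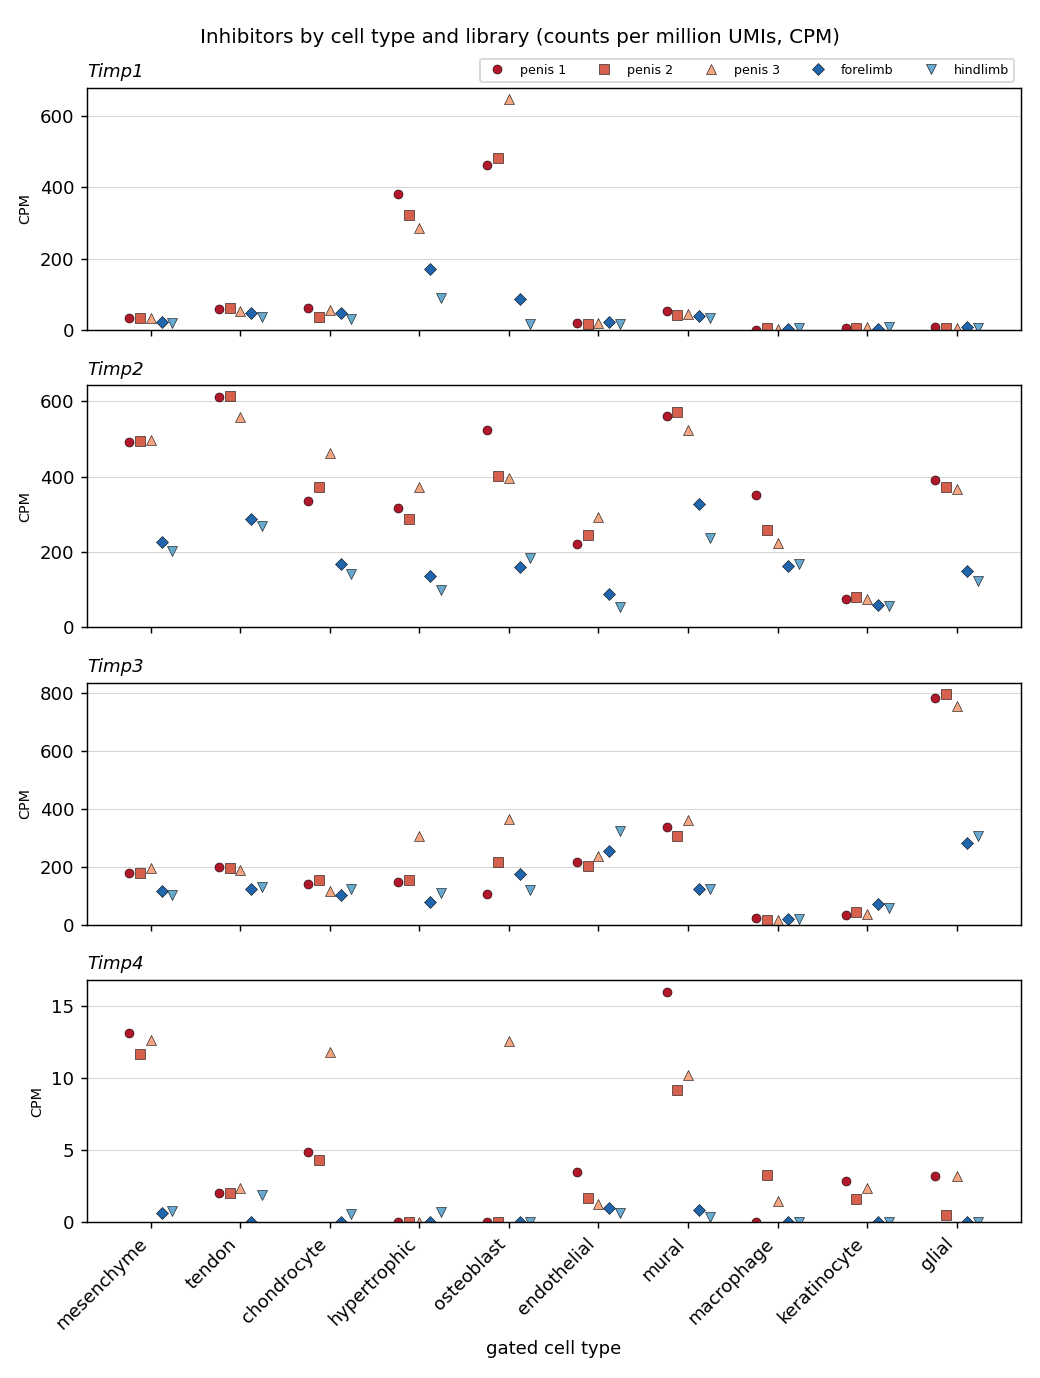
CPM of Timp1 to Timp4 in 10 gated types on linear axes, 1 point per library (red shades penis, blue shades limb). Timp1 peaks in hypertrophic and osteoblast gates, Timp3 in glial cells of the penis, and Timp4 is above 9 CPM in mesenchyme and mural cells of the penis only apart from single points in gates of few cells.

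In endothelial cells Adamts9, Adamts12, Mmp2, Mmp14 and Timp2 were higher in the penis. Of 26 members tested, 5 were higher in the penis, where 7.25% of all 13383 genes were, and 1 was lower, where 6.34% were. Adamts9 was 1026, 1003 and 1158 CPM in the penis and 390.3 and 408 CPM in the forelimb and hindlimb (log2 fold change 1.38 ± 0.088 (SE), adjusted p = 5.19e-09). Adamts12 was 64.6, 68.0 and 68.5 CPM in the penis and 22.03 and 22.8 CPM in the forelimb and hindlimb (log2 fold change 1.54 ± 0.13 (SE), adjusted p = 1.03e-07), and 0.91 on the log2 scale with looser gates, which ended its call. Mmp14 was 408, 379.8 and 426 CPM in the penis and 164 and 154 CPM in the forelimb and hindlimb (log2 fold change 1.31 ± 0.088 (SE), adjusted p = 9.67e-09). That was 80.6% to 87.8% of its mesenchymal level in the penis and 71.3% and 71.9% in the limb. Mmp2 was 107, 110.5 and 145 CPM in the penis and 41.8 and 34.6 CPM in the forelimb and hindlimb (log2 fold change 1.62 ± 0.14 (SE), adjusted p = 2.25e-07). Timp2 was 222, 244 and 293 CPM in the penis and 86.8 and 54.6 CPM in the forelimb and hindlimb (log2 fold change 1.81 ± 0.15 (SE), adjusted p = 1.56e-07). None of these 5 genes overlapped between the arms, which adds no support as the calls picked them. The lower gene was Adamts14, a procollagen N-proteinase, at 2.66, 2.07 and 1.27 CPM against 6.91 and 6.79 CPM (log2 fold change -1.76, only 1 penis library at the filter's limit). That call was lost without the forelimb library (adjusted p = 0.0155), the hindlimb library (0.0156) or with DESeq2 (0.0111). Adamts1 was 387, 397 and 412 CPM in the penis and 207 and 202 CPM in the forelimb and hindlimb and fell short of the limit on size (log2 fold change 0.93 ± 0.082 (SE), adjusted p = 2.40e-07). The summed mesenchyme markers in these cells stood at 686 to 779 CPM in the penis libraries and 618 to 793 CPM in the limb libraries, 12.2% to 18.5% of their mesenchymal level. Among other lists, chondrocyte markers summed to 27.4 to 35.0 CPM in the penis and 103 to 104 CPM in the limb and keratinocyte markers to 35.0 to 82.0 CPM in the penis and 17.6 to 22.4 CPM in the limb. The part of these lists in the differences, and of the mesenchyme markers in that of Mmp2, whose endothelial level was 24.5% to 32.6% of the mesenchymal one in the penis and 34.6% to 40.8% in the limb, was not tested.

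Mural cells showed differences in both directions. Of 30 members tested, 4 were higher (8.98% of 14015 genes were) and 5 lower (7.38% of genes were), and Timp4 and Mmp25 among them passed the filter through 1 arm alone. Besides Timp3 and Timp4, Mmp2 was higher, at 239.8, 256 and 241 CPM in the penis and 108 and 121 CPM in the forelimb and hindlimb (log2 fold change 1.05 ± 0.11 (SE), adjusted p = 1.74e-05). So was Adamts4, aggrecanase 1, at 51.5, 53.9 and 58.2 CPM in the penis and 19.9 and 30.8 CPM in the forelimb and hindlimb (log2 fold change 1.06 ± 0.17 (SE), adjusted p = 3.91e-04). Without the forelimb library both log2 fold changes fell under the limit, to 0.98 and 0.78. The Mmp2 difference was 0.35 with stricter gates (adjusted p = 0.0968), and that of Adamts4 was 0.72 with looser gates and 0.95 over all barcodes. The other aggrecanase, Adamts5, was lower, at 46.0, 37.9 and 32.7 CPM in the penis and 145 and 91.6 CPM in the forelimb and hindlimb (log2 fold change -1.66 ± 0.19 (SE), adjusted p = 4.04e-05). Adamts17 was 35.3, 36.1 and 31.7 CPM in the penis and 82.7 and 124 CPM in the forelimb and hindlimb (log2 fold change -1.63 ± 0.16 (SE), adjusted p = 1.12e-05), and Mmp25 and Adamts7 were lower at under 16 CPM in every library (log2 fold changes -1.70 and -1.27). Adamts7 lost its call without penis replicate 2 (adjusted p = 0.0113) or with stricter gates (0.0108). Mmp16 sat at the limit on size (log2 fold change -1.005 ± 0.12 (SE), adjusted p = 5.32e-05), and under it without penis replicate 1 (-0.94), penis replicate 3 (-0.98) or the hindlimb library (-0.88). With stricter gates the Mmp16 difference was -0.38 (adjusted p = 0.0545) and with looser gates -0.90, and over all barcodes or without the filter on low counts it was -0.995 each time, also under the limit. The summed mural markers that set the gate were 1714 to 2299 CPM in the penis libraries, 791 CPM in the forelimb and 840.1 CPM in the hindlimb. The summed mesenchyme markers in mural-gated cells were 4785 to 4848 CPM in the penis libraries and 3919 to 4034 CPM in the limb libraries. Endothelial markers summed to 128 to 155 CPM in the penis and 209 to 231 CPM in the limb and keratinocyte markers to 36.5 to 52.4 CPM in the penis and 18.0 to 24.1 CPM in the limb, and the part of any of these lists in the mural differences was not tested.

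Glial cells also differed in both directions. Of 25 tested, 7 were lower in the penis (28%), where 7.67% of all 11330 genes were, and 4 were higher (16%), where 8.89% were. The filter was passed through the limb alone by 3 of the 7 and through the penis alone by 1 of the 4. Adamts20 had the largest difference (log2 fold change 3.16 ± 0.23 (SE), adjusted p = 2.88e-08), which was 4.11 without the forelimb library. A UMI of Adamts20 was found in 358 of 520 penis cells and 40 of 308 limb cells, not thinned. Glial median depth was 8277 to 10119 UMIs in the penis and 6562 and 7339 in the forelimb and hindlimb. Timp2 was 392, 372 and 366 CPM in the penis and 149.9 and 121 CPM in the forelimb and hindlimb (log2 fold change 1.52 ± 0.11 (SE), adjusted p = 2.80e-08). Mmp28 was 12.8, 16.7 and 10.2 CPM against 3.19 and 3.14 CPM (log2 fold change 2.12, filter passed through the penis alone). The lower members were 2 membrane-type enzymes (Mmp16 and Mmp17) and 5 ADAMTSs. Mmp17, a membrane-type enzyme held by a lipid anchor, was 4.27, 4.41 and 3.20 CPM in the penis and 35.1 and 36.8 CPM in the forelimb and hindlimb (log2 fold change -3.08, filter passed through the limb alone). Adamts19 was 1.60, 0.981 and 1.28 CPM against 14.04 and 10.2 CPM (log2 fold change -3.13, filter passed through the limb alone), and the log2 fold change was -1.25 with looser gates and -0.76 over all barcodes. Adamts9 ran against its endothelial direction, at 22.4, 35.3 and 39.7 CPM in the penis and 118 and 97.2 CPM in the forelimb and hindlimb (log2 fold change -1.68 ± 0.19 (SE), adjusted p = 3.20e-06). Adamts3 was 5.34, 3.92 and 3.84 CPM against 16.0 and 20.4 CPM (log2 fold change -1.96, filter passed through the limb alone). Adamts6, Mmp16 and Adamts12 were lower by log2 fold changes of -1.91, -1.52 and -1.24. Neither Mmp2 nor Mmp14 was called here. Mmp2 was 109, 92.7 and 107 CPM in the penis and 119 and 109.7 CPM in the forelimb and hindlimb (log2 fold change -0.10 ± 0.12 (SE), adjusted p = 0.523). Mmp14 was 172, 148 and 167 CPM against 161 and 169 CPM (log2 fold change 0.034 ± 0.10 (SE), adjusted p = 0.825). The summed glial markers that set the gate were 13694 to 14288 CPM in the penis libraries, 1856 CPM in the forelimb and 1912 CPM in the hindlimb. The summed mesenchyme markers in glial-gated cells were 1008 to 1344 CPM in the penis libraries and 1330.1 to 1474 CPM in the limb libraries. Endothelial markers summed to 67.7 to 83.3 CPM in the penis and 149.7 to 159 CPM in the limb, keratinocyte markers to 70.5 to 81.9 CPM in the penis and 24.2 to 32.1 CPM in the limb and chondrocyte markers to 153 to 175 CPM in the penis and 233 to 258 CPM in the limb, and the part of any of these lists in the glial differences was not tested.

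Chondrocyte-gated cells were few in the penis, 25 to 31 per library against 1276 and 1637 in the limb, and held less of the markers that name them. In these cells the summed chondrocyte markers stood at 2174 to 2916 CPM in the penis libraries and 14661 to 16017 CPM in the limb libraries, and the summed mesenchyme markers at 5246 to 5903 CPM in the penis libraries and 1869 to 2085 CPM in the limb libraries. The part of either list in the differences below was not tested. Cells that also passed the hypertrophic gate were not among them, as that gate went first. There the summed chondrocyte markers were 22692 to 29218 CPM in the penis libraries and 22944 to 30494 CPM in the limb libraries. The test thus leaves out the penis cells with chondrocyte markers at the limb's level. Of 16 members tested, 5 were higher (8.94% of 7681 genes were) and 2 lower (6.22% of genes were). Mmp14 was 724, 652 and 787 CPM in the penis and 175 and 163 CPM in the forelimb and hindlimb (log2 fold change 2.12 ± 0.14 (SE), adjusted p = 7.53e-08). Mmp2 was 276, 309.9 and 372 CPM in the penis and 95.4 and 89.2 CPM in the forelimb and hindlimb (log2 fold change 1.81 ± 0.15 (SE), adjusted p = 4.90e-07). Timp2 was 335, 373 and 463 CPM in the penis and 167 and 141 CPM in the forelimb and hindlimb (log2 fold change 1.36 ± 0.16 (SE), adjusted p = 1.43e-05). These 3 genes were also higher in mesenchyme. So was Mmp23, here at 26.9, 23.8 and 20.6 CPM against 6.31 and 5.30 CPM (log2 fold change 2.08, filter passed through the penis alone). Adamts2, the main N-proteinase of collagen type I, was 41.6, 39.0 and 88.5 CPM against 16.3 and 17.7 CPM (log2 fold change 1.69, filter passed through the penis alone). Its relative Adamts3 went the other way, at 31.8, 21.7 and 26.5 CPM in the penis and 123 and 142 CPM in the forelimb and hindlimb (log2 fold change -2.30 ± 0.22 (SE), adjusted p = 2.28e-06). So did Mmp16, at 70.9, 128 and 91.4 CPM in the penis and 261 and 253 CPM in the forelimb and hindlimb (log2 fold change -1.37 ± 0.19 (SE), adjusted p = 6.89e-05). Looser gates ended the calls of Timp2 (log2 fold change 0.72) and Mmp16 (-0.95). In the hypertrophic gate, not tested, Adamts3 overlapped between the arms, as given above.

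In keratinocytes 22 members were tested, of which 4 were higher in the penis (5.32% of 12511 genes were) and 1 was lower (5.87% of genes were). Mmp7 was read in the penis only. Against a floor of 3 UMIs over both limb libraries its pooled penis level was 7.88-fold higher, a value that takes UMIs as independent. A single penis cell held up to 16 of them, so that this fold is not a firm lower bound. Mmp7 passed the filter through the penis alone. Adamts19 was 75.5, 72.7 and 84.5 CPM in the penis and 22.5 and 21.9 CPM in the forelimb and hindlimb (log2 fold change 1.83 ± 0.17 (SE), adjusted p = 4.43e-06). Adamts15, a versican- and aggrecan-cutting enzyme, was 11.4, 15.4 and 22.1 CPM against 1.61 and 2.74 CPM (log2 fold change 2.86, filter passed through the penis alone). Mmp15 was 13.2, 12.7 and 15.4 CPM against 2.41 and 4.79 CPM (log2 fold change 1.91, only 1 limb library at the filter's limit). It lost its call without penis replicate 3 (adjusted p = 0.0104) or the forelimb library (0.0272) or with DESeq2 (0.0113), and without the hindlimb library the difference was 2.52. The lower gene was Adamts6, a fibrillin-associated enzyme, at 10.0, 8.92 and 10.7 CPM against 26.5 and 23.3 CPM (log2 fold change -1.30 ± 0.24 (SE), adjusted p = 0.00130), a call lost without the forelimb library (adjusted p = 0.0146). The highest ADAMTS here was Adamts17, at 79.2, 75.7 and 107 CPM in the penis and 140.5 and 79.4 CPM in the forelimb and hindlimb, where the arms overlapped. The summed mesenchyme markers in keratinocyte-gated cells were 599 to 806 CPM in the penis libraries and 824 to 863 CPM in the limb libraries. Neutrophil markers lay further apart, at 75.7 to 116 CPM in the penis and 5.48 to 7.22 CPM in the limb, and so did chondrocyte markers, at 20.9 to 37.3 CPM in the penis and 99.5 to 134 CPM in the limb. The part of these lists in the keratinocyte differences was not tested.

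Macrophages had 12 members tested, of which 2 were higher in the penis (6.24% of 9358 genes were) and 2 lower (3.00% of genes were). Mmp2 was 46.6, 63.7 and 39.5 CPM in the penis and 17.4 and 16.9 CPM in the forelimb and hindlimb (log2 fold change 1.59 ± 0.21 (SE), adjusted p = 1.03e-04). Mmp14 was 88.8, 109 and 82.0 CPM in the penis and 44.5 and 43.3 CPM in the forelimb and hindlimb (log2 fold change 1.13 ± 0.15 (SE), adjusted p = 1.12e-04). The macrophage level of Mmp2 was 8.90% to 17.0% of the mesenchymal level of the same library. The summed mesenchyme markers in the macrophage gate were 7.74% to 14.8% of theirs, at 434 to 663 CPM in the penis libraries and 606 to 636 CPM in the limb libraries. Neutrophil markers summed to 28.1 to 81.0 CPM in the penis and 9.83 to 10.2 CPM in the limb and chondrocyte markers to 44.4 to 60.4 CPM in the penis and 103 to 115 CPM in the limb, and the part of these lists in the macrophage differences was not tested. Without penis replicate 2 the Mmp14 difference fell under the limit, to 0.98. Mmp16 was lower, at 5.55, 8.64 and 17.6 CPM against 25.7 and 31.2 CPM (log2 fold change -1.47, only 1 penis library at the filter's limit). So was Adamts1, at 8.88, 21.6 and 13.2 CPM against 29.9 and 41.4 CPM (log2 fold change -1.24 ± 0.29 (SE), adjusted p = 0.00585). Mmp16 rests on 5, 8 and 12 UMIs in the penis and Adamts1 on 8, 20 and 9. The Mmp16 call was lost without penis replicate 1 or 2, the forelimb or the hindlimb library (adjusted p = 0.0195, 0.0152, 0.0209 and 0.0638), with stricter gates (0.0101) or with DESeq2 (0.0212). The Adamts1 call was lost without penis replicate 1 or 3, the forelimb or the hindlimb library (adjusted p = 0.0358, 0.0346, 0.0137 and 0.107) or with DESeq2 (0.0282). With looser gates the Adamts1 difference was -0.17 (adjusted p = 0.554). Over all barcodes it was -0.36 (adjusted p = 0.321) and that of Mmp16 -0.63 (adjusted p = 0.0595), and none of the 4 calls was kept without the filter on low counts. The highest member in macrophages was Timp2, with 92.7% of the TIMP counts in the penis and 87.0% in the limb.

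Over the 7 gates, Mmp2 was called higher in 5 and Mmp14 and Timp2 in 4 each, none of them lower in any. Mmp16 was called lower in 4 and higher in none, and only its glial call was kept under every alternative. Under at least 1 alternative Mmp2 lost its calls in mural cells and macrophages. Mmp14 lost its call in macrophages and Timp2 in chondrocytes in the same way. Adamts9, Adamts12 and Adamts19 were called higher in 1 gate and lower in another. The lower call of Adamts19, in glial cells, passed the filter through the limb alone. The gates share libraries and are not independent of each other. A further model, over both gates with a term per library, tested whether the penis-limb difference itself differed between endothelium and mesenchyme. Of 37 members tested, the signed log2 fold change, penis minus limb, was higher in endothelium for 3, where 3.78% of 19139 genes were, and lower for 2, where 3.18% were. The sign of the interaction says nothing of which difference was larger in size. Adamts9 had the smallest adjusted p (difference of log2 fold changes 1.46 ± 0.083, adjusted p = 3.95e-08) and overlapped between the arms in mesenchyme. Adamts7 (1.65 ± 0.27, adjusted p = 5.66e-04) and Adamts5 (1.39 ± 0.19, adjusted p = 1.17e-04) had log2 fold changes of -1.20 and -0.73 in mesenchyme and 0.42 and 0.64 in endothelium. The signed value was lower in endothelium for Adamts14 (-1.93 ± 0.36, adjusted p = 0.00167), at -1.76 against 0.18 in mesenchyme, and for Timp3 (-1.14 ± 0.13, adjusted p = 3.01e-05), at -0.44 against 0.73. For Mmp2 the interaction was -0.45 ± 0.15 (adjusted p = 0.0459) and was not called.

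**Figure D5:**
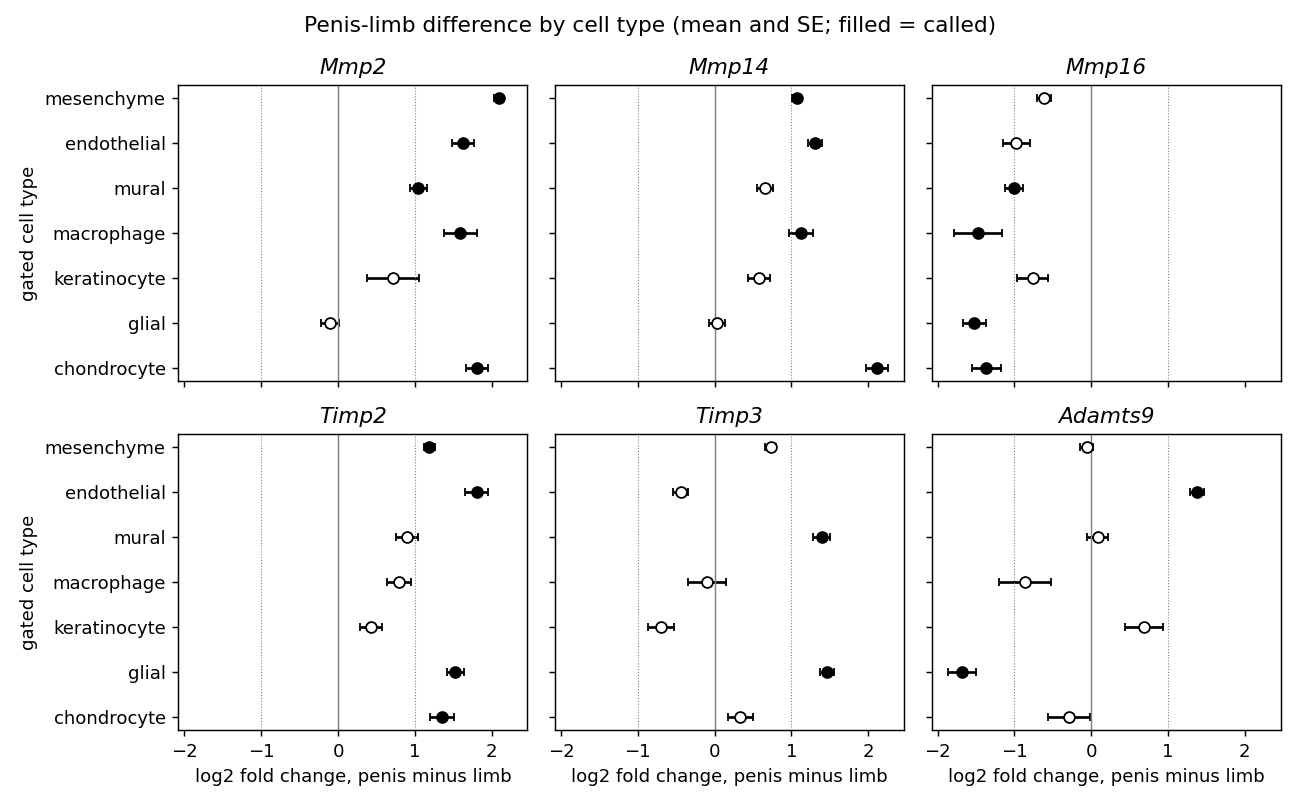
Log2 fold change, penis minus limb, with its standard error, of Mmp2, Mmp14, Mmp16, Timp2, Timp3 and Adamts9 in the 7 gates tested; filled points were called, open ones were not, and dotted lines mark the limit of 1. Mmp2, Mmp14 and Timp2 lie mostly to the right and Mmp16 to the left, while Timp3 and Adamts9 lie on both sides.

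Other genes of the pathway, 38 in all, were taken from a list of inhibitors, activators, ADAM proteinases, ADAMTS-like proteins, other matrix proteinases and substrates. All 38 were tested in mesenchyme, with 5 higher and 5 lower in the penis, where 12.4% of all genes tested were called in each direction. In endothelium 33 were tested, with 5 higher and 4 lower, where the shares of all genes were 7.25% and 6.34%. In mesenchyme the activator Plau (urokinase) was 0.709, 0.52 and 0.618 CPM against 2.09 and 1.36 CPM (log2 fold change -1.50 ± 0.25 (SE), adjusted p = 5.88e-04). The substrate Dcn (decorin) was 3902, 3796 and 3709 CPM in the penis and 1449 and 1289.5 CPM in the forelimb and hindlimb (log2 fold change 1.45 ± 0.093 (SE), adjusted p = 1.66e-06). The secreted serine proteinase Htra1 was 356, 332 and 323 CPM in the penis and 156 and 120.0 CPM in the forelimb and hindlimb (log2 fold change 1.26 ± 0.11 (SE), adjusted p = 1.18e-05). Serpine2, a serine proteinase inhibitor, and Adamtsl4, an ADAMTS-like protein of microfibrils, were also higher (log2 fold changes 1.34 and 1.77), and Tll2, Pcolce2 and Adamtsl2 lower (-1.45, -1.12 and -1.27). None of the 8 ADAM proteinases was called in mesenchyme. Tll1, a tolloid-like procollagen C-proteinase, ran in opposite directions. In mesenchyme it was 3.57, 3.35 and 2.56 CPM in the penis and 17.1 and 21.2 CPM in the forelimb and hindlimb (log2 fold change -2.61 ± 0.14 (SE), adjusted p = 5.62e-07). In endothelium it was 315, 313 and 434 CPM in the penis and 22.7 and 23.8 CPM in the forelimb and hindlimb (log2 fold change 3.89 ± 0.16 (SE), adjusted p = 4.73e-11). The other endothelial genes called higher were Adam12, Adamtsl3, the cartilage matrix protein Comp and Htra1 (log2 fold changes 1.41, 1.34, 1.32 and 1.25). Those called lower were Tll2, Adamtsl1, Plau and Pcsk6, a proprotein convertase (-2.74, -1.60, -1.36 and -1.01), of which Tll2 passed the filter through the limb alone.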

How the data were processed

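The samples were 10x Genomics 3′ v3.1 single-cell libraries of mouse P6 penis (3), forelimb (1) and hindlimb (1). The authors ran Cell Ranger 7.0.0 on mm10 per the labels and deposited raw UMI counts per gene and barcode. Whether introns were counted is not given in the sources used here.

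Cells were kept at 500 to 6000 genes and at most 5% mitochondrial UMIs in the penis, 100 to 9000 (forelimb) or 9500 (hindlimb) genes and at most 10% in the limb, and a ratio of log10 genes to log10 UMIs of at least 0.8, reading the study's limits as genes per cell. Cells were gated by a minimum number of detected markers per type, and cells in several gates were dropped in place of a doublet caller. Counts were summed per library and gate and tested with edgeR 4.0.16 (R 4.3.3; TMM, filterByExpr, quasi-likelihood test, Benjamini-Hochberg over all genes tested), with no covariate, or the library as a block for the interaction. DESeq2 1.42.0 and the other alternatives are in the closing section. Kept cells held 51529854 to 148752710 UMIs per library. On simulated sums with known changes the test recovered 100% of changed genes in mesenchyme and 75.4% in the interaction. The planted changes lay well beyond the limit on size, with 1 dispersion for all genes. Recovery of changes near that limit was not simulated. Intervals cover counting error only. The members and lists were chosen with earlier results of these data known. Values are given for the TIMPs, 11 fixed members, the called members with the largest changes (up to 10 per direction in mesenchyme and 4 in other types), the member of each family that led a gate, members called in the interaction and a pathway list; other members named (among them Mmp7, Mmp8, Mmp12, Mmp28 and Adamts18 outside their calls) were chosen after their values were seen. The values of 1 gene of the pathway list are not reported here. Promoter sequences are RefSeq's, on GRCm38.p6.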

Additional observations from a re-analysis of the deposited data

Results flagged for a closer look

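In 5 members the penis-limb difference was not the same in endothelium and mesenchyme by a test of the interaction (edgeR, library as a block, adjusted over all genes tested). The difference of log2 fold changes, endothelium minus mesenchyme, was 1.65 for Adamts7, 1.46 for Adamts9 and 1.39 for Adamts5, and -1.93 for Adamts14 and -1.14 for Timp3. Over the alternatives the Adamts9 difference ranged from 1.41 to 1.62 and that of Adamts7 from 1.38 to 2.05, and both kept their call. The call of Adamts14 was lost without the hindlimb library (adjusted p = 0.0113), that of Timp3 without the hindlimb library (-0.80) or with looser gates (-0.997), and that of Adamts5 with looser gates (0.88). The level of Adamts14 in endothelium rests on 5 to 13 UMIs per penis library and 21 and 22 per limb library. In endothelium the summed mesenchyme markers were 686 to 779 CPM in the penis and 618 to 793 CPM in the limb, so that the penis values lay within the range of the limb, and their part in these differences was not tested.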

How the results depend on the processing

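No paired analysis was possible because the penis libraries came from pups and the limb libraries from embryos, which form no pairs. The members called in each comparison and their log2 fold changes were recomputed under 12 alternatives; those for single members outside mesenchyme were added after the data were seen. Of 63 calls, 37 were kept under every alternative that gave a value, 26 were lost under at least 1, and none changed sign. In macrophages none of the 4 calls was kept throughout. Looser gates ended the calls of Mmp15 in mesenchyme (log2 fold change 0.96), Adamts12 in endothelium (0.91), Adamts19 in glial cells (-1.25), Adamts4 in mural cells (0.72) and Mmp16 and Timp2 in chondrocytes (-0.95 and 0.72), and stricter gates that of Mmp2 in mural cells (0.35). With stricter gates Mmp13 passed in mesenchyme, at 2.60 against 0.81. With an adjusted p under 0.05 and no fold limit the called members went from 16 to 30 in mesenchyme, from 6 to 17 in endothelium, from 5 to 11 in keratinocytes, from 9 to 16 in mural cells and from 5 to 17 in the interaction. Over all genes this limit called 14253 of 20226, 5840 of 13383, 3386 of 12511, 6246 of 14015 and 3990 of 19139, in the same order. Looser gates gave 11 in endothelium, 14 in mural cells, 4 in place of 7 in chondrocytes and 10 in the interaction. Over all genes they gave 1920 of 13354, 3236 of 16068, 509 of 4001 and 1731 of 18056, in the same order. Without the low-count filter 12 were called in chondrocytes and 0 in macrophages, where 13 of 41 members had an unadjusted p under 0.05 and DESeq2 with the filter called 2 members. Over all genes 1807 of 22932 in chondrocytes and 47 of 21613 in macrophages were called without that filter. All barcodes gave 7 in macrophages. Leaving out 1 library at a time gave 14 to 17 calls in mesenchyme, 7 to 8 in endothelium, 2 to 3 in macrophages, 3 to 5 in keratinocytes, 9 to 12 in glial cells, 7 to 9 in mural cells, 6 to 9 in chondrocytes and 4 to 7 in the interaction; where the limb arm was left with 1 library, it was taken to vary like the penis. Keratinocytes fell to 3 without the forelimb library, and macrophages to 2 without penis replicate 1 or either limb library. RLE scaling changed no count of members. The causes were not tested. The 2 limb libraries and the 25 to 31 penis chondrocytes per library limit the precision for low members.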

Other observations

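Adamts18, known from eye and lung development, was counted in keratinocyte-gated cells of every library, at 18.6, 17.3 and 45.01 CPM in the penis and 58.6 and 38.3 CPM in the forelimb and hindlimb, against at most 1.30 CPM in mesenchyme of any library. It was not confined to them. Hypertrophic-gated cells, 14 to 19 per penis library, held 9195%, 0% and 11209% of its mesenchymal level in the penis and 362% and 743% in the forelimb and hindlimb. The penis-limb difference of Adamts18 in keratinocytes was not called (log2 fold change -0.86 ± 0.34 (SE), adjusted p = 0.0825). Limb skeletal muscle, absent from the penis gates, held low sums of these families: the MMPs summed to 119 and 121 CPM there and the TIMPs to 112 and 102 CPM, below the sums in limb mesenchyme. Tendon had the highest Mmp14 of the larger gates, at 1079, 985 and 1070.1 CPM in the penis and 338 and 329.8 CPM in the forelimb and hindlimb. In tendon Mmp16 ran the other way, at 118, 107 and 139.6 CPM in the penis and 267 and 351 CPM in the forelimb and hindlimb. The summed mesenchyme markers in tendon-gated cells were 6711 to 6771 CPM in the penis libraries and 3731 to 4094 CPM in the limb libraries. Chondrocyte markers summed to 553 to 609 CPM in the penis and 318 to 368 CPM in the limb. Endothelial markers summed to 29.9 to 36.9 CPM in the penis and 130 to 174 CPM in the limb. These tendon values, and the part of these lists in them, were not tested.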
